A study of Homo sapiens with 6 samples.

Results

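Retinoic acid target genes and genes of retinoid handling were followed in the MYCN-amplified human neuroblastoma line SK-N-BE(2) after the transcription factor gene MYT1 was lowered. The 10 genes were taken by symbol from a list drawn up for their roles, with earlier results of these libraries known. Each was found once among 32434 gene IDs of the FPKM table, an ID being matched to its symbol through GENCODE 29. They are the retinoic acid responsive genes TGM2, PLAT and TSHZ1, the enzyme genes RDH10, DHRS3, CYP26A1 and CYP26B1, the retinol uptake receptor gene STRA6 and the coregulator genes NRIP1 and NCOA2. The shMYT1 group held 3 libraries of cells carrying a lentiviral hairpin against MYT1, and the shNC group held 3 libraries of cells carrying a control hairpin. Both groups were SK-N-BE(2) cells, and the treatment protocol, given alike for all 6 libraries, names 24 h of infection and 48 h of puromycin. The genotype labels call the MYT1 cells a knockout, but the sample names and the protocol describe a knockdown. No label names a retinoic acid treatment, says how many hairpins were used, or says that replicates were separate cultures. The p-values therefore measure the spread between these libraries, which may be technical.

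Retinoic acid is made from retinol in a pair of oxidation steps. Retinol dehydrogenases such as RDH10 form retinaldehyde, and retinaldehyde dehydrogenases of the ALDH1A family form the acid. DHRS3 works against RDH10 by reducing retinaldehyde to retinol, and the CYP26 enzymes hydroxylate the acid for removal. The acid binds RAR receptors, which sit on DNA with RXR partners and then exchange corepressors for coactivators, and CYP26A1, DHRS3 and RARB are classical targets. Neuroblastoma cells are known to differentiate under retinoic acid, and the series title concerns MYT1 in that pathway.

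MYT1 stood at 4.20, 4.13 and 4.36 FPKM (fragments scaled to exon length and library size) in the shMYT1 libraries, against 5.73, 5.12 and 5.18 FPKM in the shNC libraries. The means differed by -20.8%, and the groups did not overlap. The log2 fold change was -0.28 with an SE of 0.05, at an adjusted p of 0.0102 in limma. The shMYT1 libraries held 18.16 to 20.3 M fragments and the shNC libraries 21.08 to 21.68 M, as recovered from the FPKM. All 10 listed noradrenergic markers of neuroblastoma passed the filter on low values, and TH, the tyrosine hydroxylase gene, averaged 141 FPKM in shMYT1 cells and 168 FPKM in shNC cells. Of the 14106 genes that averaged 1 FPKM or more, 24.2% passed limma's test at an adjusted p under 0.05, 11.9% higher and 12.3% lower in shMYT1 cells. Of the genes that passed, 49.2% were higher with the values as deposited and 36.4% with all libraries brought to a common FPKM total.

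Of the 10 genes, 7 reached the level at which they could be tested and 3 did not. TGM2, PLAT, TSHZ1 and RDH10 rose in shMYT1 cells, NRIP1 and NCOA2 fell, and STRA6 did not pass. Of the 7 tested genes 85.7% passed, against 24.2% of all tested genes. Their median log2 fold change was 0.32, against -0.005 over all tested genes. Neither contrast is independent of the data, since these genes were chosen with earlier results of these libraries known. Their adjusted p ranged from 8.65e-05 to 0.00598 in the 6 genes that passed (limma, Benjamini-Hochberg over all tested genes). In these 6 genes (85.7% of those tested, against 42.3% of all tested genes) the groups did not overlap. For each of them p was 0.1 in an exact permutation test (two-sided), the lowest value possible with 3 against 3 libraries.

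**Figure D1:**
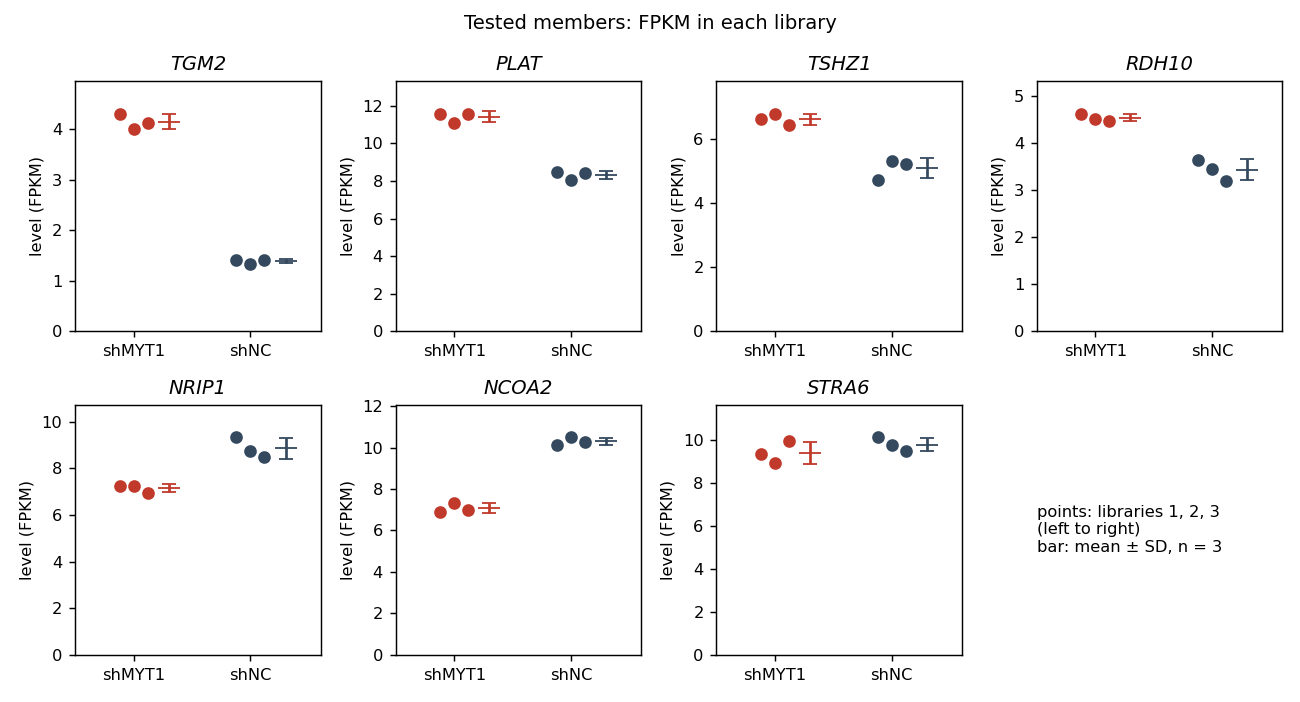
Level in FPKM of each of the 7 tested genes in the 3 shMYT1 libraries (red) and the 3 shNC libraries (dark), with the mean and SD beside the points. Every shMYT1 point lies above every shNC point for TGM2, PLAT, TSHZ1 and RDH10 and below for NRIP1 and NCOA2, while the points of STRA6 overlap.

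TGM2 encodes tissue transglutaminase, a calcium-dependent protein crosslinking enzyme and a long-known retinoic acid target (ENSG00000198959, chromosome 20, 38127387 to 38166578, minus strand, hg38). It stood at 4.31, 4.004 and 4.13 FPKM in the shMYT1 libraries, against 1.42, 1.34 and 1.42 FPKM in the shNC libraries. The libraries of a group lay close together and far from those of the other group. The mean of 4.15 ± 0.15 FPKM in shMYT1 cells was 2.98 times the mean of 1.39 ± 0.05 FPKM in shNC cells (SD, n = 3 each), and the log2 fold change was 1.11 (95% interval 0.98 to 1.23, SE 0.05) at an adjusted p of 8.65e-05 in limma. On the log2(FPKM + 1) scale used here, fold changes of low genes are understated, and with a pseudocount of 0.1 the value was 1.51. TGM2 ranked 27th from the top of 14106 tested genes by log2 fold change. A total of 1850 fragments in shMYT1 cells and 710 in shNC cells lay behind these values.

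TGM2 shares 394 of its 8036 exon bases with RPRD1B on the opposite strand. No strand setting is stated, so fragments there cannot be assigned with certainty. RPRD1B averaged 8.63 ± 0.26 FPKM in shMYT1 cells and 8.67 ± 0.32 FPKM in shNC cells (SD, n = 3 each), with a log2 fold change of -0.01 (95% interval -0.10 to 0.09). Among tested protein-coding genes outside those followed here, KCNT1, CXCL12 and BCHE had the profiles over the 6 libraries most like that of TGM2. Likeness was the root mean square difference of centred log2(FPKM + 1) values, which was 0.02, 0.05 and 0.07 for these genes. KCNT1 averaged 4.60 FPKM in shMYT1 cells and 1.67 FPKM in shNC cells.

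PLAT encodes tissue plasminogen activator, a secreted protease that turns plasminogen into plasmin (ENSG00000104368, chromosome 8, 42175233 to 42207724, minus strand, hg38). It stood at 11.6, 11.1 and 11.6 FPKM in the shMYT1 libraries, against 8.46, 8.05 and 8.42 FPKM in the shNC libraries. The lowest shMYT1 library was above the highest shNC library. The means were 11.4 ± 0.29 FPKM in shMYT1 cells and 8.31 ± 0.23 FPKM in shNC cells (SD, n = 3 each), a difference of 37.3%. The log2 fold change was 0.41 (95% interval 0.33 to 0.50, SE 0.04) at an adjusted p of 0.000661 in limma.

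TSHZ1 encodes a teashirt-type zinc finger transcription factor (ENSG00000179981, chromosome 18, 75210755 to 75289950, plus strand, hg38). It stood at 6.61, 6.78 and 6.42 FPKM in the shMYT1 libraries, against 4.73, 5.31 and 5.22 FPKM in the shNC libraries. The shNC libraries were the more scattered, with replicate 1 the lowest, and still lay below all shMYT1 libraries. The difference of the means was 29.9%, with a log2 fold change of 0.32 (95% interval 0.20 to 0.44, SE 0.05) at an adjusted p of 0.00515 in limma.

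Among the enzymes, RDH10 was the one with a level high enough to test. It encodes the membrane-bound retinol dehydrogenase that forms retinaldehyde in embryos (ENSG00000121039, chromosome 8, 73294612 to 73325281, plus strand, hg38). RDH10 stood at 4.62, 4.51 and 4.47 FPKM in the shMYT1 libraries, against 3.64, 3.45 and 3.20 FPKM in the shNC libraries. The shMYT1 libraries were nearly level with each other and above all shNC libraries. The difference of the means was 32.3%, with a log2 fold change of 0.32 (95% interval 0.20 to 0.44, SE 0.05) at an adjusted p of 0.00564 in limma. RDH10 shares 278 of its 5321 exon bases with the antisense gene RDH10-AS1, which averaged 0.178 FPKM in shMYT1 cells and 0.0955 FPKM in shNC cells.

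DHRS3, CYP26B1 and CYP26A1 were at or near the limit of detection in both groups. A level of 3 fragments in a library, taken as the floor, equals 0.046 to 0.0559 FPKM for DHRS3, 0.0279 to 0.0338 FPKM for CYP26B1 and 0.047 to 0.0571 FPKM for CYP26A1. These floors and the counting intervals cover counting error only. None of the 3 genes passed limma's test in a fit without the filter on low values, in which 7.89% of 32434 genes passed, and 0 had an unadjusted p under 0.05.

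DHRS3 encodes the retinaldehyde reductase (ENSG00000162496, chromosome 1, 12567910 to 12617731, minus strand, hg38). It had 11, 12 and 7 fragments in the shMYT1 libraries, against 7, 9 and 3 fragments in the shNC libraries. The counts overlapped between the groups. The corresponding levels averaged 0.178 ± 0.047 FPKM in shMYT1 cells and 0.0986 ± 0.048 FPKM in shNC cells (SD, n = 3 each). The ratio of the summed counts, corrected by the library scaling within the deposited FPKM, was 1.81 with an exact 95% Poisson interval of 0.98 to 3.40. In limma the adjusted p was 0.328. A difference was not detectable at this depth.

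CYP26B1 (ENSG00000003137, chromosome 2, 72129238 to 72148038, minus strand, hg38) had 1, 1 and 2 fragments in the shMYT1 libraries, against 0, 0 and 1 fragment in the shNC libraries. Every library was under the floor, so no fold is given. CYP26A1 (ENSG00000095596, chromosome 10, 93073475 to 93077890, plus strand, hg38) had 2, 0 and 0 fragments in the shMYT1 libraries and 0 in each shNC library. Both genes encode enzymes that clear retinoic acid, and CYP26A1 is among the genes most readily induced by it in many cell types. The limma adjusted p was 0.724 for CYP26B1 and 0.769 for CYP26A1. Of the exon bases of CYP26A1, 750 of 2972 are shared with another gene on the same strand, AL358613.3.

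**Figure D2:**
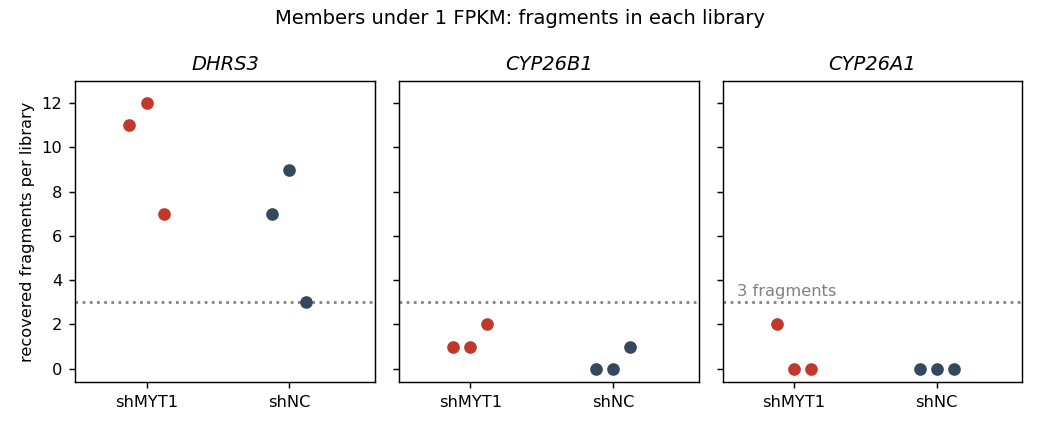
Fragments recovered in each of the 3 shMYT1 libraries (red) and 3 shNC libraries (dark) for DHRS3, CYP26B1 and CYP26A1, with a dotted line at 3 fragments. DHRS3 lies between 3 and 12 fragments with overlapping groups, and the CYP26 genes lie between 0 and 2.

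The CYP26A1 promoter is shown because, of the windows searched here, it alone held the letters of a complete response element. RefSeq promoter windows (GRCh38.p14, 250 bases before to 50 after a start site) were at hand for 5 of the 10 genes, namely DHRS3, CYP26A1, CYP26B1, STRA6 and NRIP1, with 14 windows in all. They were searched on both strands for the half-site AGGTCA and its variants AGTTCA with a T inside, GGGTCA with a leading G, and GGTTCA with both, and for direct repeats of any 2 of them spaced by 1, 2 or 5 bases. A half-site occurs in 38.6% of all 35116 windows, and a direct repeat spaced by 5 bases occurs in 0.0883% of them. A window of CYP26A1, of 2 for this gene, at chr10:93073643-93073942 (plus strand) held such a repeat at 90 to 74 bases before the start, on the strand opposite to the gene. Capitals mark the repeat with its spacer.
CYP26A1: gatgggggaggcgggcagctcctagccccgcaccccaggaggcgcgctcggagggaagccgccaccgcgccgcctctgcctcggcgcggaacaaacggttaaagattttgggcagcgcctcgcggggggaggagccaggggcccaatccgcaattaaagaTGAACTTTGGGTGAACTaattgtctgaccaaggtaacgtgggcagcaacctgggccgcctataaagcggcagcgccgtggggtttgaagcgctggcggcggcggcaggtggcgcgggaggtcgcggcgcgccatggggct
Read on the opposite strand the repeat is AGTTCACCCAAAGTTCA. Repeats spaced by 1 or 2 bases occur in 0.131% and 0.0399% of all windows, and none of the 14 windows held one. A match of letters is a description and not evidence of binding in these cells.

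STRA6 encodes the membrane receptor that takes up retinol from its plasma carrier RBP4 (ENSG00000137868, chromosome 15, 74179466 to 74212267, minus strand, hg38). It stood at 9.36, 8.91 and 9.93 FPKM in the shMYT1 libraries, against 10.1, 9.76 and 9.48 FPKM in the shNC libraries. The groups overlapped, with 1 shMYT1 library inside the range of the shNC libraries. The log2 fold change was -0.05 (95% interval -0.16 to 0.06, SE 0.05) at an adjusted p of 0.453 in limma, and p was 0.4 in the exact permutation test. STRA6 shares 540 of its 7690 exon bases with CCDC33 on the opposite strand, which averaged 0.71 FPKM in shMYT1 cells and 0.783 FPKM in shNC cells. RBP4 itself, named here after its values were seen, averaged 0.121 FPKM in shMYT1 cells and 0.304 FPKM in shNC cells and was under the filter.

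Both coregulators were lower in shMYT1 cells. NRIP1, also called RIP140, is a corepressor that binds nuclear receptors in the presence of their ligand and is itself induced by retinoic acid (ENSG00000180530, chromosome 21, 14961235 to 15065936, minus strand, hg38). It stood at 7.25, 7.25 and 6.96 FPKM in the shMYT1 libraries, against 9.33, 8.76 and 8.47 FPKM in the shNC libraries. All shMYT1 libraries were below all shNC libraries. The difference of the means was -19.2%, with a log2 fold change of -0.27 (95% interval -0.38 to -0.17, SE 0.04) at an adjusted p of 0.00598 in limma. NRIP1 shares 562 of its 8497 exon bases with an antisense gene, AF127577.1, and 87 with a gene on its own strand, AF127577.4.

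The NRIP1 and STRA6 windows below hold half-sites without a complete repeat and are shown beside the CYP26A1 window for comparison, with the half-sites of either strand in capitals. Of the genes with a window, NRIP1 alone passed the test. A half-site occurred in 6 of the 14 windows, beside 38.6% of all windows. Among these were 2 of the 3 DHRS3 windows, which are not shown. NRIP1 has 3 windows and STRA6 has 5, and for each gene the window with the most half-sites is shown. That of NRIP1 lies at chr21:15065887-15066186 (minus strand) and that of STRA6 at chr15:74212210-74212509 (minus strand), each written along its gene.
NRIP1: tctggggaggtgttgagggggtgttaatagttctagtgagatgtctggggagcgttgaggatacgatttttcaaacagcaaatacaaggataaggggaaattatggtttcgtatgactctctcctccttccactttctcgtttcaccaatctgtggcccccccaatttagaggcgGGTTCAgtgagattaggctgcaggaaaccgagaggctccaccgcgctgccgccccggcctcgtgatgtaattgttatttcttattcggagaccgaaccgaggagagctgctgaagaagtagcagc
STRA6: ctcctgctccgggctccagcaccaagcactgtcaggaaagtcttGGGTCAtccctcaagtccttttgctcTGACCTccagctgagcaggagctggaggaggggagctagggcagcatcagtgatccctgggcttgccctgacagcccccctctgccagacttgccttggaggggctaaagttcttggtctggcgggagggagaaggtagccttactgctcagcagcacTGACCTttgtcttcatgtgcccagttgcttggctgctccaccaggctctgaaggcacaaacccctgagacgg
The NRIP1 window shown has 1 half-site, 75 to 70 bases before the start, and the other NRIP1 windows have 0. The STRA6 window shown has 3, and of the other STRA6 windows 1 has a half-site.

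NCOA2 encodes a p160 coactivator, which binds receptors that carry their ligand and recruits histone acetyltransferases (ENSG00000140396, chromosome 8, 70109762 to 70403805, minus strand, hg38). It stood at 6.89, 7.33 and 6.98 FPKM in the shMYT1 libraries, against 10.1, 10.5 and 10.2 FPKM in the shNC libraries. The gap between the groups was several times the spread within either. The means were 7.07 ± 0.23 FPKM in shMYT1 cells and 10.3 ± 0.18 FPKM in shNC cells (SD, n = 3 each), a difference of -31.3%. The log2 fold change was -0.49 (95% interval -0.57 to -0.40, SE 0.04) at an adjusted p of 0.000413 in limma.

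The other p160 genes, NCOA1 and NCOA3, are given here after their values were seen. NCOA1 averaged 3.68 FPKM in shMYT1 cells and 3.80 FPKM in shNC cells (log2 fold change -0.03, limma adjusted p = 0.619). NCOA3 averaged 5.63 FPKM in shMYT1 cells and 5.27 FPKM in shNC cells (log2 fold change 0.08, limma adjusted p = 0.203). NCOA2 thus was the one member of the p160 family to pass, although the differences between the family members were not tested. Among tested protein-coding genes outside those followed here, SDCBP, LRRN1 and C5orf30 had the profiles over the 6 libraries most like that of NCOA2. Their root mean square differences were 0.015, 0.024 and 0.024. SDCBP, also on chromosome 8, averaged 25.1 FPKM in shMYT1 cells and 35.4 FPKM in shNC cells.

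The order of the 7 levels, compared per length of exon in FPKM, was not the same in the groups. In shMYT1 cells it was PLAT, STRA6, NRIP1, NCOA2, TSHZ1, RDH10 and TGM2 from high to low, and in shNC cells it was NCOA2, STRA6, NRIP1, PLAT, TSHZ1, RDH10 and TGM2. The libraries of neighbours in this order overlapped for 1 pair, NRIP1 and NCOA2 in shMYT1 cells. TGM2 was the lowest in both groups. In shMYT1 cells its mean was above that of 38.7% of tested genes, and in shNC cells above that of 9.38%.

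Of the 10 genes, 3 lie on chromosome 8, where many genes were lower in shMYT1 cells. Of 523 tested genes on that chromosome 21 rose and 244 fell, where 11.9% of all tested genes rose and 12.3% fell. Their median log2 fold change on chromosome 8 was -0.20, against -0.005 over all tested genes. PLAT and RDH10 went against their neighbours. Among up to 25 tested genes on either side, all 50 neighbours of PLAT had a lower log2 fold change than PLAT, and their median was -0.23. Of the 50 neighbours of RDH10, 46 had a lower value and the median was -0.20. NCOA2 moved with its neighbours but further, since 47 of 50 had a higher value and the median was -0.16.

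With the running median of the neighbours subtracted, the log2 fold change was 0.65 for PLAT (limma adjusted p = 0.000154) and 0.52 for RDH10 (limma adjusted p = 0.00112). Both moved by over 1.5 times, away from 0. NCOA2 stood at -0.33 (limma adjusted p = 0.00198). NRIP1, on chromosome 21, has 40 neighbours with a median of -0.10, and its value became -0.18 (limma adjusted p = 0.0334), also a move of over 1.5 times. The neighbours of TGM2 and TSHZ1 had medians of 0.03 and 0.02, and all of them had lower values than the gene itself. The part of the regional shifts in the values of PLAT, RDH10, NCOA2 and NRIP1 was not tested beyond this subtraction.

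**Figure D3:**
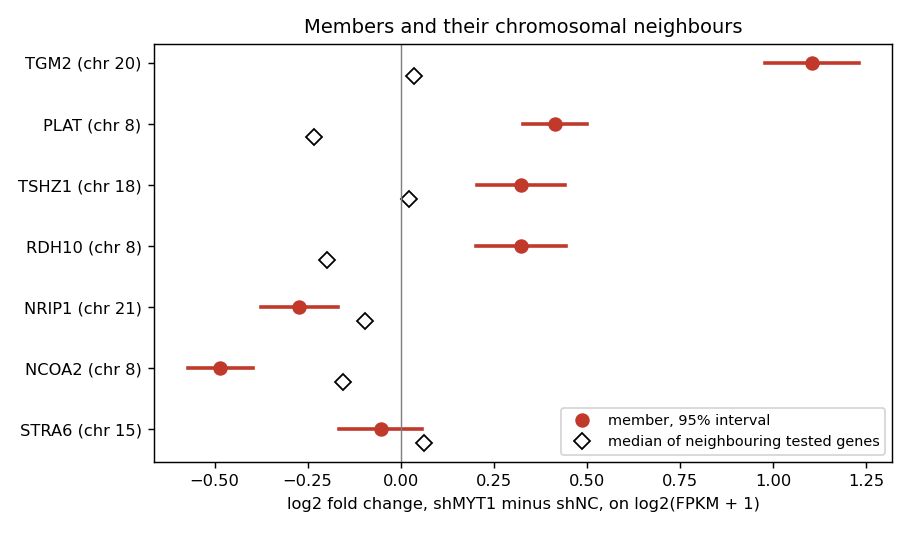
Log2 fold change of the 7 tested genes, shMYT1 minus shNC, on log2(FPKM + 1), with 95% intervals (red) and the median of the neighbouring tested genes (open diamonds). PLAT and RDH10 lie at 0.41 and 0.32 while their neighbours' medians are -0.23 and -0.20, and NCOA2 at -0.49 lies beyond a median of -0.16.

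**Figure D4:**
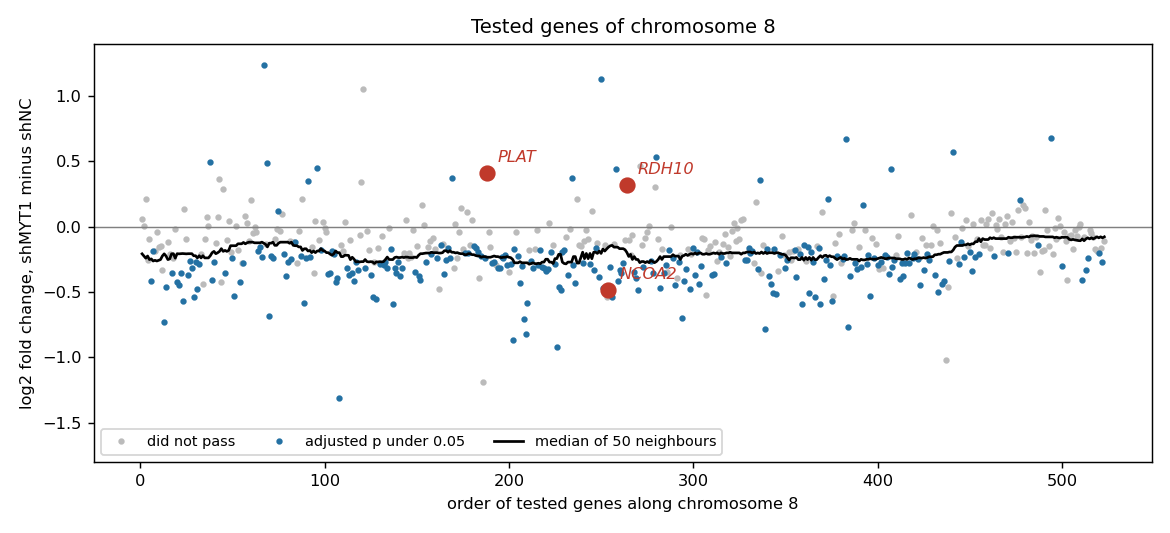
Log2 fold change, shMYT1 minus shNC, of the 523 tested genes of chromosome 8 in their order along it, with genes that passed in blue and the median of 50 neighbours as a line. The line stays below 0, PLAT and RDH10 lie above it, and NCOA2 lies below it.

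The rest of the pathway was read from 4 further lists, which leave out the 10 genes. The lists of responsive genes and of receptors share 5 genes, so their counts are not independent, and a background of 24.2% holds for each. Of 26 other retinoic acid responsive genes found in the table, 16 were tested, 5 rose, 3 fell and 8 did not pass, with a median log2 fold change of 0.08. The retinoic acid carrier gene CRABP2 averaged 158 ± 0.67 FPKM in shMYT1 cells and 61.0 ± 0.62 FPKM in shNC cells (SD, n = 3 each), a log2 fold change of 1.36 (limma adjusted p = 1.02e-06). SOX9, a transcription factor gene that is also listed among mesenchymal markers, averaged 4.45 FPKM in shMYT1 cells and 1.89 FPKM in shNC cells. RAI14 and RAI2 are both named as retinoic acid induced genes. RAI14 averaged 1.40 FPKM in shMYT1 cells and 0.693 FPKM in shNC cells. RAI2 went the other way, averaging 1.13 FPKM in shMYT1 cells and 2.38 FPKM in shNC cells. RARB, the classical target among the receptors, is given here after its values were seen. It was under the filter at 0.327 FPKM in shMYT1 cells and 0.512 FPKM in shNC cells. With low genes included, limma gave RARB an unadjusted p of 0.0366 and an adjusted p of 0.197.

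Of 24 other genes of retinoid enzymes and transport found, 7 were tested, 0 rose, 2 fell and 5 did not pass in limma's test, with a median of -0.06. At an unadjusted p under 0.05, 1 was higher and 3 were lower, and 1 rose with quantile normalization, with voom and with the replicate number as a block. CYP1B1, a cytochrome P450 that can oxidise retinol, fell to 5.04 ± 0.54 FPKM in shMYT1 cells, against 7.26 ± 0.42 FPKM in shNC cells (SD, n = 3 each), a log2 fold change of -0.45 (limma adjusted p = 0.00672). RDH11, a retinal reductase, averaged 13.8 FPKM in shMYT1 cells and 15.2 FPKM in shNC cells (log2 fold change -0.13, limma adjusted p = 0.0249). The RDH11 call was lost in 5 of 6 fits with a library left out, as given further on. The genes for the final step of retinoic acid synthesis, named here after their values were seen, were all under the filter. ALDH1A3 averaged 0.778 FPKM in shMYT1 cells and 0.865 FPKM in shNC cells, and ALDH1A2 averaged 0.0126 FPKM in shMYT1 cells and 0.0147 FPKM in shNC cells. ALDH1A1 averaged 0.0125 FPKM in shMYT1 cells and was listed at 0 in each shNC library.

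Of 16 genes of receptors and binding proteins, 12 were tested, 2 rose, 4 fell and 6 did not pass, with a median of -0.08. The 2 that rose were CRABP2 and RARA, the retinoic acid receptor alpha gene, which averaged 10.9 FPKM in shMYT1 cells and 7.45 FPKM in shNC cells (limma adjusted p = 0.0014). FABP5, a fatty acid binding protein that can also carry retinoic acid and lies on chromosome 8, fell to 33.4 FPKM in shMYT1 cells, against 54.8 FPKM in shNC cells (log2 fold change -0.70, limma adjusted p = 9.08e-05). The nuclear receptor gene RORB averaged 4.31 FPKM in shMYT1 cells and 6.32 FPKM in shNC cells (limma adjusted p = 0.00172).

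Of 25 other coregulators, 24 were tested, 3 rose, 4 fell and 17 did not pass, and the median was -0.0002. That share, 29.2%, was near the background of 24.2%. NR2F1, an orphan nuclear receptor gene also known as COUP-TF1, averaged 1.91 FPKM in shMYT1 cells and 0.839 FPKM in shNC cells (log2 fold change 0.67, limma adjusted p = 0.00295). TBL1X, a corepressor subunit, fell to 6.79 FPKM in shMYT1 cells, against 8.17 FPKM in shNC cells (limma adjusted p = 0.00783). PRMT1, an arginine methyltransferase, averaged 61.3 FPKM in shMYT1 cells and 48.0 FPKM in shNC cells (log2 fold change 0.35, limma adjusted p = 0.00157). With the running median of its neighbours on chromosome 19 subtracted, the log2 fold change of PRMT1 was 0.03 (limma adjusted p = 0.693).

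**Figure D5:**
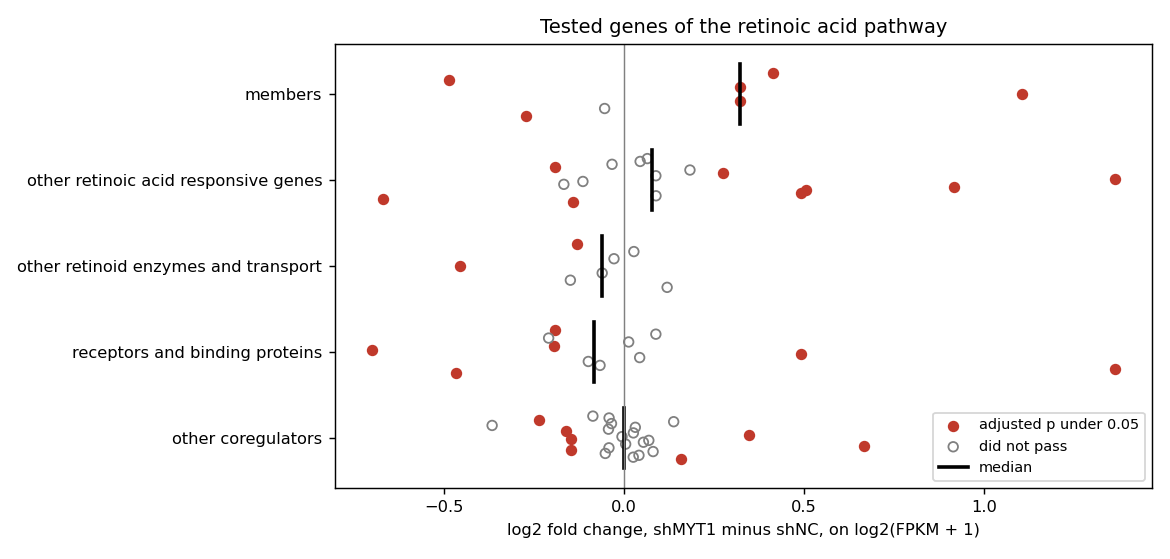
Log2 fold change, shMYT1 minus shNC, of the tested genes among the 10 members and in 4 further lists of the retinoic acid pathway, with genes that passed filled and list medians as bars. Each list holds genes on both sides of 0 that passed, except the enzymes and transport list, whose 2 passing genes are lower in shMYT1 cells.

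TGM2 and PLAT are also expressed by stromal and endothelial cells, so markers of such cells were read beside them. None of 7 endothelial markers reached the filter. Their summed level was 0.552 to 0.625 FPKM in shMYT1 libraries and 0.395 to 0.449 FPKM in shNC libraries. PECAM1, CDH5, KDR, TEK and TIE1 were below 0.1 FPKM. The remaining markers, VWF and CLDN5, are given here after their values were seen. VWF averaged 0.174 FPKM in shMYT1 cells and 0.0651 FPKM in shNC cells (limma adjusted p = 0.0557 with low genes included). CLDN5 averaged 0.289 FPKM in shMYT1 cells and 0.262 FPKM in shNC cells (limma adjusted p = 0.834 with low genes included). Of 9 tested fibroblast and mural markers 5 rose and 3 fell (88.9%, beside 24.2% of all tested genes). The markers of this list summed to 537 to 580 FPKM in shMYT1 libraries and 532 to 564 FPKM in shNC libraries. RGS5 was the highest of them, at 433 FPKM in shMYT1 cells and 384 FPKM in shNC cells. LUM, among those that fell, averaged 54.6 FPKM in shMYT1 cells and 97.7 FPKM in shNC cells. Of 11 tested mesenchymal-state neuroblastoma markers, 6 rose and 2 fell (72.7%, beside the same background). That list summed to 347 to 353 FPKM in shMYT1 libraries and 339 to 347 FPKM in shNC libraries. VIM was its highest gene, at 153 FPKM in shMYT1 cells and 129 FPKM in shNC cells. Of the Schwann and glial markers 5 were found, and the sum of these was 2.68 to 3.39 FPKM in shMYT1 libraries and 2.14 to 2.35 FPKM in shNC libraries, with 0 of 2 tested passing in limma, 1 higher at an unadjusted p under 0.05 and 1 higher with voom. The 5 blood and immune markers found were all under the filter, with sums of 0.853 to 1.96 FPKM in shMYT1 libraries and 0.376 to 0.671 FPKM in shNC libraries. Of these, the monocyte marker CD14 stood at 0.770, 1.17 and 0.985 FPKM in the shMYT1 libraries, against 0.395, 0.480 and 0.303 FPKM in the shNC libraries, and it passed in the limma fit without a filter (log2 fold change 0.50, adjusted p = 0.0441), in which 7.89% of 32434 genes passed. The haemoglobin gene HBB was listed at 0.859 FPKM in shMYT1 replicate 3 and at 0 in the other libraries. PTPRC, the pan-leukocyte marker, given here after its values were seen, averaged 0.0514 FPKM in shMYT1 cells and 0.0641 FPKM in shNC cells. In bulk RNA, fewer cells of a type and less RNA per cell cannot be told apart. The part of other cell states in the rises of TGM2 and PLAT was not tested.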

How the data were processed

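RNA of 6 libraries was prepared with a NEBNext Ultra kit, per the labels' protocols, with no mention of strand. The authors deposited FPKM values in 1 table. HISAT2 2.0.5, featureCounts 1.5.0-p3 and hg38 were used, per the submitters' processing notes. Neither the annotation nor a strand setting is given in the sources used here.

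Of 32434 gene IDs, 32301 (99.6%) were found in GENCODE 29. For 95.3% of these, the 10 members included, FPKM multiplied by exon length fell on whole steps (tolerance 0.01) in each of 6 libraries, and counting the steps gave the fragments. The median ratio to the mean library was equal in all libraries (1.004, over 22101 genes), so the deposited values carry a median-based scaling that no label records.

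Genes averaging 1 FPKM or more entered a two-sided limma test (version 3.58.1 in R 4.3.3) of log2(FPKM + 1) that used a variance trend, Benjamini-Hochberg adjustment and a threshold of 0.05. Members and lists were chosen with earlier results of these data known. The rule named all 10 members, MYT1 and up to 4 passing genes per list with the largest change. From lists where none passed, the rule took the genes highest in FPKM, and from marker lists also the highest gene. It also named the 3 tested protein-coding genes outside the members with profiles most like TGM2 and NCOA2. Genes named outside it are marked, apart from genes that share exon bases with a member and endothelial markers below 0.1 FPKM. Replicates differed by more than counting noise (chi-square per gene 1.97 to 3.60 where a pair had 20 or more fragments), so none were merged. The fit was tested on simulated data. Some listed genes, and some that the rule names, are not reported here.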

Additional observations from a re-analysis of the deposited data

How the results depend on the processing

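The calls of TGM2, PLAT, TSHZ1, RDH10, NRIP1 and NCOA2 kept their direction and passed limma's threshold in every alternative that could test them, 15 for TGM2 and RDH10 and 16 for the others. These were another pseudocount, filter, scaling or variance model, voom on fragments, the replicate block, removal of the regional running median, and omission of each library. The highest adjusted p was 0.0334, for NRIP1. STRA6 did not pass in any of 16 (log2 fold change -0.11 to -0.02). With a mean of at least 5 FPKM the number of members that rose was 2 instead of 4, since TGM2 and RDH10 then leave the test. The 3 members under 1 FPKM did not pass with a pseudocount of 0.1 or 0.5 (adjusted p 0.34 to 0.751).

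Of all genes tested, 3420 passed, a number that was 2038 to 3048 with a library left out, where each fit has fewer samples. It was 2196 without shMYT1 replicate 1, 2195 without shNC replicate 1 and 2038 without shNC replicate 2. The RDH11 call was lost in these fits and without shMYT1 replicate 2 or 3 (adjusted p 0.0534 to 0.0831), and with the regional running median removed (0.0875). In the list of coregulators 2 genes fell, instead of 4, in 8 alternatives. Among responsive genes 1 fell instead of 3 in 3 alternatives, and 3 rose instead of 5 with a mean of at least 5 FPKM. Among enzymes 1 fell instead of 2 in 5 alternatives, and among receptors 2 fell instead of 4 in 1. The cause of these changes was not tested.

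Replicate numbers share only a number: deviations of same-numbered libraries correlated at 0.013 to 0.043, although each library correlated best with its own number. With the replicate block 3381 genes passed, and no member's call changed. Between 226 and 2208 fragments per library lay behind the tested members and between 0 and 12 behind the others, which sets what could be detected.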
